A study of Mus musculus with 6 samples.

Results

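B2 elements are a family of mouse short interspersed elements (SINEs), and their RNA was measured in mouse embryonic fibroblasts with and without β-actin. Members were all rows of the deposited repeat tables with the class SINE and the family B2, which gave 5 of 1336 rows. They were B2_Mm1a, B2_Mm1t and B2_Mm2, treated as the young members, and B3 and B3A, treated as the older ones. All 5 had enough counts to be tested, among 1193 tested rows in the whole table. The cells were wild type (WT, 3 libraries) or Actb-/- (KO, 3 libraries), and both groups were fibroblasts of strain BALB/c from embryos of 10.5 days, with no treatment named in the labels. The labels do not say whether the 3 replicates of a genotype came from separate embryos or from 1 line, so the p-values measure the spread between these libraries. The tables hold repeats and structural RNA and no protein-coding genes, so neither Actb RNA nor fibroblast markers could be checked.

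B2 elements descend from a tRNA gene and carry an internal promoter for RNA polymerase III, the enzyme that makes tRNA, 5S rRNA and other small RNAs. They do not encode a protein and were copied into the genome with the machinery of LINE-1 elements. B2 sequence also lies in introns and untranslated regions of many genes, so it is also transcribed by RNA polymerase II as part of longer RNAs. The RNA made by polymerase III is known for its rise after heat shock and for binding RNA polymerase II and repressing transcription. In these tables all copies of a subfamily are summed, so the 2 sources of B2 RNA cannot be told apart, and neither can fewer cells with B2 RNA and less B2 RNA per cell.

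Library totals ran from 7708630 to 19288620 counts, and rRNA rows took 32.4% to 84.8% of them. In WT replicate 1, the shallowest library, the rRNA share had an exact (Clopper-Pearson) 95% binomial interval of 32.38% to 32.45%, which covers counting error only. The lowest count of any B2 row in any library was 5409, for B2_Mm1a in KO replicate 1. Levels are given as normalized CPM, CPM of an effective library size that comes from TMM (trimmed mean of M-values) scaling and so is not set by rRNA. Element lengths and copy numbers were not used, so a higher row is one that took more reads, not one that is more active per copy.

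B2_Mm1a, a young subfamily, was the one B2 row that passed the test, and its RNA was lower in KO cells. It stood at 965, 1074 and 973 normalized CPM in the WT libraries, here and below in the order of replicates 1, 2 and 3, and at 663, 643 and 658 in the KO libraries. The highest KO library lay far below the lowest WT library, and the 3 KO libraries were within 1.03-fold of each other. The KO mean was 0.652 of the WT mean, a log2 fold change of -0.62 with a 95% interval of -0.79 to -0.45 (edgeR quasi-likelihood test, adjusted p = 0.00429). Of all tested rows, 3.6% were called lower and 5.78% were called in either direction. By its p-value B2_Mm1a ranked 8 of 1193. Among the 43 rows called lower it had the second highest WT level, after the spliceosomal RNA U2.

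The other young rows had values in the same direction and did not pass. B2_Mm1t was at 1757, 1945 and 1799 normalized CPM in the WT libraries and at 1511, 1414 and 1373 in the KO libraries. Its groups did not overlap, and the log2 fold change was -0.36 with a 95% interval of -0.56 to -0.15 (edgeR adjusted p = 0.0590). B2_Mm2, the young row with the most reads, was at 3225, 3373 and 3293 in WT and at 2891, 2719 and 2639 in KO. Its groups did not overlap either, and the log2 fold change was -0.26 with an interval of -0.48 to -0.042 (edgeR adjusted p = 0.164). These intervals are for 1 row each and are not adjusted for the number of rows tested. Both rows passed with DESeq2 (adjusted p = 6.60e-05 and 0.00346) and with limma-voom (adjusted p = 0.0137 and 0.0224), where 6.45% and 5.28% of all rows were called. All 3 KO libraries lay below all 3 WT libraries in 3 of 3 young rows, against 13.4% of all tested rows.

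**Figure D1:**
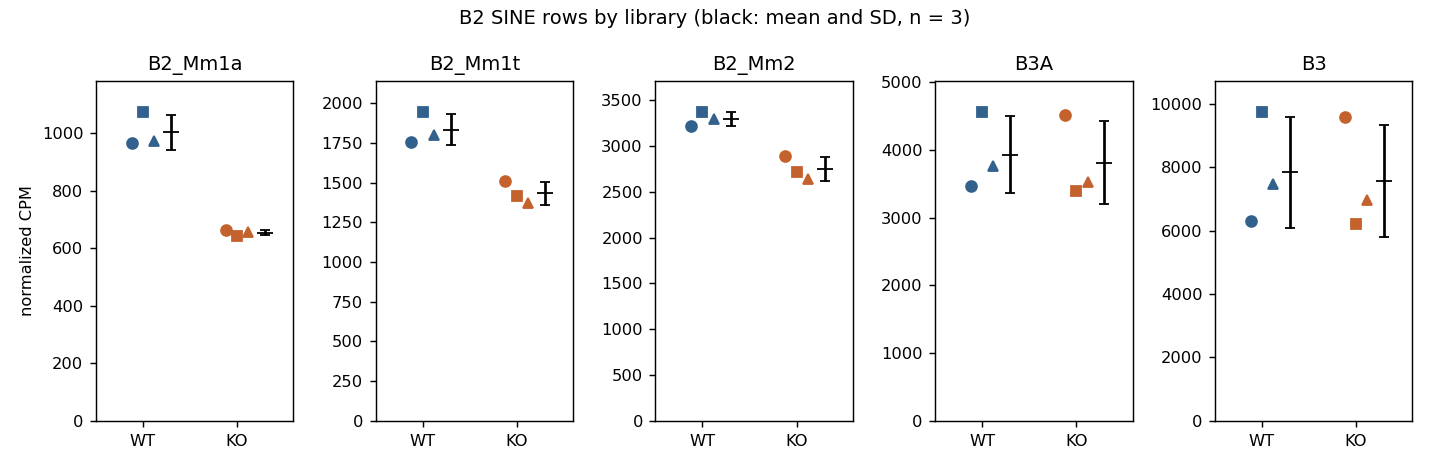
Normalized CPM (vertical axis, from 0, 1 scale per panel) of the 5 B2 rows in WT (blue) and KO (orange) libraries, with circles, squares and triangles for replicates 1, 2 and 3 and black marks for the mean and SD. The groups are separate for the 3 young rows on the left, and overlap for B3A and B3, where WT replicate 2 and KO replicate 1 stand highest.

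The older rows took more reads than the young rows and showed no shift between genotypes beyond a wide spread. B3 was at 6289, 9739 and 7479 normalized CPM in the WT libraries and at 9564, 6199 and 6964 in the KO libraries. The highest library was 1.55 times the lowest in WT and 1.54 times in KO, and the groups overlapped over nearly their whole range. Its log2 fold change was -0.049 with a 95% interval of -0.55 to 0.45 (edgeR adjusted p = 0.931). B3A was at 3471, 4557 and 3755 in WT and at 4509, 3397 and 3522 in KO. Its log2 fold change was -0.044 with an interval of -0.40 to 0.31 (edgeR adjusted p = 0.917). The sign of both values turned with libraries scaled to the SINE rows outside B2 and when WT replicate 2 or either of KO replicates 2 and 3 was left out, reaching 0.14 for B3 and 0.073 for B3A without WT replicate 2. The intervals of B3 and B3A reach -0.55 and -0.40, so a fall as large as that of B2_Mm1t lies within them.

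In order of reads per row, B3 was highest, followed by B3A, B2_Mm2, B2_Mm1t and B2_Mm1a in the means of both genotypes. B3A and B2_Mm2 were the closest neighbours in WT, at 3928 ± 563 and 3297 ± 74.2 normalized CPM (mean ± SD, n = 3). Their WT libraries did not overlap, since the lowest B3A value, 3471, was above the highest B2_Mm2 value, 3373. The spread within a genotype was larger in the older rows: the coefficient of variation was 22.4% and 23.3% for B3 in WT and KO, 14.3% and 16.0% for B3A, and between 1.53% and 6.06% for the young rows.

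Whether the young rows differed from the older ones in their response was tested directly, and that difference did not pass. Summed over rows, the ratio of young to older counts was 0.609, 0.447 and 0.540 in the WT libraries and 0.360, 0.498 and 0.445 in the KO libraries. The groups overlapped, because WT replicate 2 lay below KO replicate 2. The log2 ratio was lower in KO by a mean difference of -0.29 (exact two-sided permutation p = 0.2 in a design of 3 against 3 libraries, whose smallest possible p is 0.1). B2_Mm1a alone had 0.0988, 0.0751 and 0.0866 counts per older count in WT and 0.0471, 0.0671 and 0.0628 in KO. There every KO library lay below every WT library (exact two-sided permutation p = 0.1, or 0.25 after Benjamini-Hochberg adjustment over 20 shares and ratios). For B2_Mm1t and B2_Mm2 over the older counts the genotypes overlapped (exact two-sided permutation p = 0.2 and 0.4). With each library scaled to its own B3 and B3A counts, the log2 fold changes of B2_Mm1a, B2_Mm1t and B2_Mm2 were -0.56, -0.30 and -0.21. Their 95% intervals, -1.12 to 0.0062, -0.91 to 0.30 and -0.86 to 0.43, were wide and included 0. None of the 3 passed (edgeR adjusted p = 0.999 for each), where 1.17% of all rows did. At an unadjusted p under 0.05 there were 0 of 3, against 53 of 1193 rows in this fit. The spread of B3 and B3A between libraries enters each of these values. On simulated data with known changes, this fit recovered fewer of them than the TMM fit. A missing call here therefore does not show that young and older rows changed alike.

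Ratios among the young rows varied less from library to library and need no scaling between libraries. B2_Mm1a had 0.299, 0.318 and 0.296 counts per B2_Mm2 count in the WT libraries and 0.229, 0.237 and 0.249 in the KO libraries. Per B2_Mm1t count it had 0.547 ± 0.00578 (SD, n = 3) in WT and 0.458 ± 0.0206 in KO. B2_Mm1t per B2_Mm2 count was 0.556 ± 0.0180 in WT and 0.521 ± 0.00143 in KO. In each of these 3 ratios all KO libraries lay below all WT libraries. B2_Mm1a was thus lower in KO relative to both other young rows, and B2_Mm1t lower relative to B2_Mm2. Such ratios do not show by themselves which row changed, and the last one follows from the others. Each ratio had an exact two-sided permutation p of 0.1, the smallest that 3 against 3 libraries can give. After Benjamini-Hochberg adjustment over 20 shares and ratios computed from these libraries it was 0.25. For B3 over B3A the ratio was 1.98 ± 0.163 in WT against 1.97 ± 0.148 in KO (exact two-sided permutation p = 0.8, 0.8 adjusted). The sources used here do not give how a read with matches in several subfamilies was counted, and its part in these ratios was not tested.

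**Figure D2:**
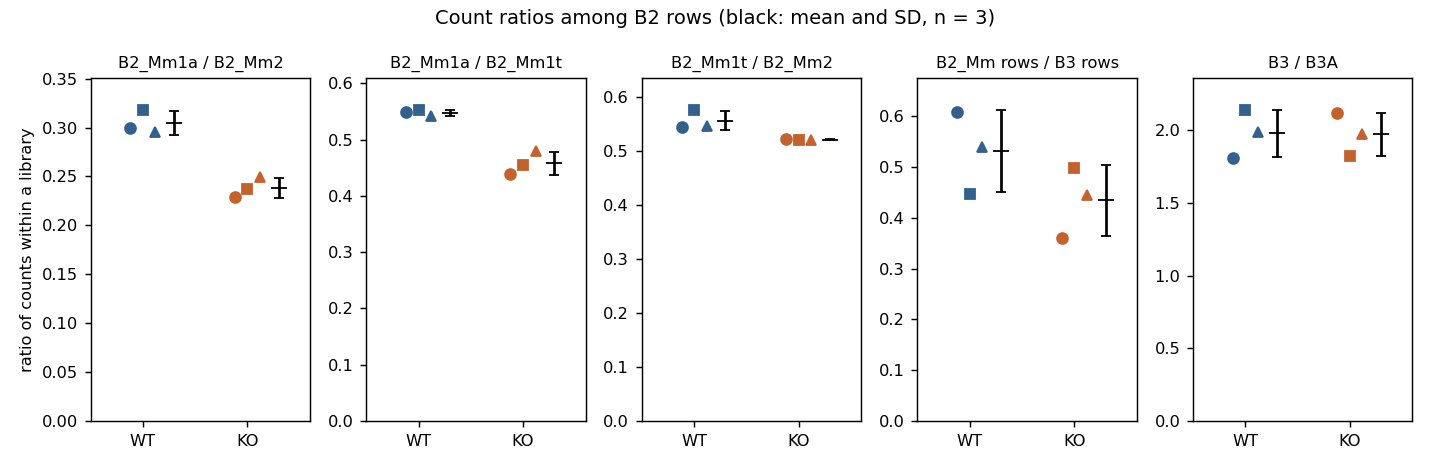
Ratios of counts within each library (vertical axis, from 0) between B2 rows, with WT in blue, KO in orange, circles, squares and triangles for replicates 1, 2 and 3, and black marks for the mean and SD. The 3 ratios among young rows separate the genotypes, whereas the young to older ratio overlaps and the ratio of B3 to B3A stays near 2 in both (1.98 in WT, 1.97 in KO).

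The levels of the older rows moved with the rRNA share of the library. B3 was highest in WT replicate 2 and KO replicate 1, where rRNA took 84.1% and 84.8% of counts, and lowest in WT replicate 1 and KO replicate 2, where it took 32.4% and 52.9%. The young to older ratio had the reverse order in both genotypes, with 0.447 and 0.360 in the libraries richest in rRNA. The libraries of each genotype were therefore also set side by side in order of their rRNA share, an arrangement chosen after seeing the data and not tested. The KO level of B2_Mm1a was 0.667 of the WT level in the libraries lowest in rRNA, 0.676 in the middle ones and 0.617 in the highest. For B3 the same comparisons gave 0.986, 0.931 and 0.982. The young to older ratio of the KO library was 0.817, 0.825 and 0.805 of that of its WT counterpart. With the log2 of the rRNA share as a covariate, B2_Mm1a and B2_Mm1t passed, at log2 fold changes of -0.64 and -0.38 (edgeR adjusted p = 0.00121 and 0.0268). In that fit 5.2% of all rows were called. B2_Mm1a relative to the older rows still did not pass with that covariate, at -0.48 (edgeR adjusted p = 0.362, with 1.68% of rows called). It passed, at -0.45 (edgeR adjusted p = 0.00288), when a replicate block was added to the covariate, a fit with 1 residual degree of freedom that called 23.8% of all rows. With the lowest-rRNA library of each genotype left out (WT replicate 1, KO replicate 2), it was at -0.56 and did not pass (edgeR adjusted p = 0.998), and the log2 ratio of young to older counts differed by -0.30.

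**Figure D3:**
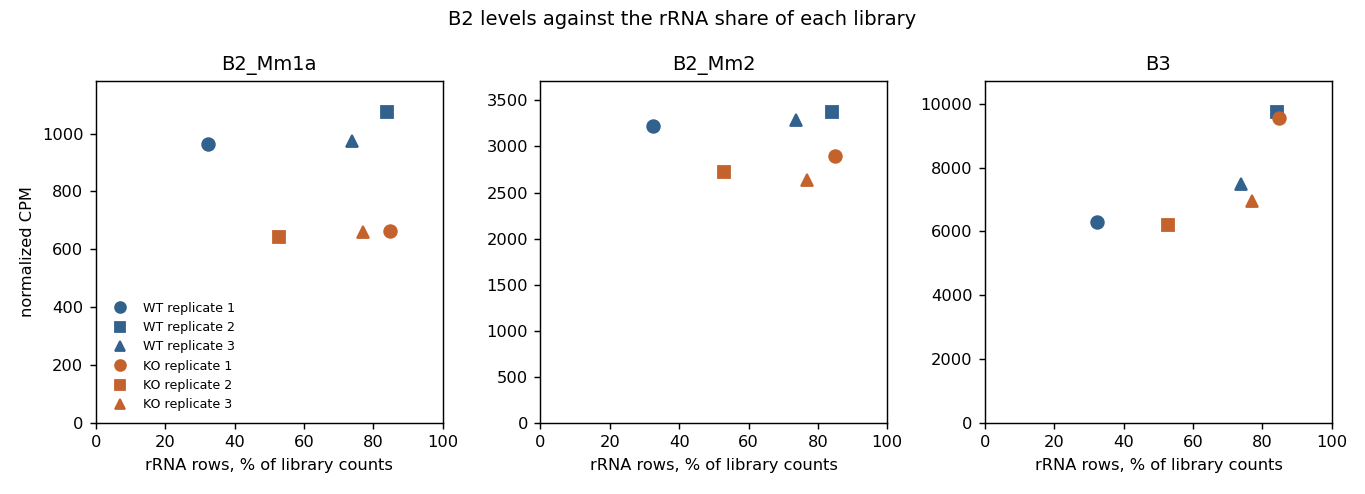
Normalized CPM of B2_Mm1a, B2_Mm2 and B3 (vertical axes, from 0) against the percent of library counts in rRNA rows (horizontal axis), 1 point per library, WT in blue and KO in orange. B2_Mm1a and B2_Mm2 lie in 2 bands by genotype, which span rRNA shares of 32.4% to 84.1% in WT and 52.9% to 84.8% in KO. B3 climbs between the libraries lowest and highest in rRNA, from 6289 to 9739 in WT and from 6199 to 9564 in KO. Its genotypes lie side by side.

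Taken as a single family, in which B3 and B3A held most of the reads, B2 did not pass the test. The family total was 17898 ± 2544 normalized CPM in WT and 16221 ± 2555 in KO (mean ± SD of 3 libraries). The log2 fold change was -0.14 with a 95% interval of -0.51 to 0.22 (edgeR over 58 families, adjusted p = 0.557). In that comparison 10.3% of families were called. The young rows made up 34.6% ± 3.50 of B2 counts in WT and 30.2% ± 3.43 in KO. B2_Mm1a took 6.14%, 5.19% and 5.63% of B2 counts in WT and 3.46%, 4.48% and 4.34% in KO, so every KO library lay below every WT library. In WT replicate 2, the library with the widest interval, the exact 95% binomial interval of that share was 5.08% to 5.30%. The share of B3A was higher in all 3 KO libraries than in any WT library, at 21.9% ± 0.209 in WT and 23.5% ± 0.213 in KO. Both shares had an exact two-sided permutation p of 0.1, or 0.25 adjusted over the 20 shares and ratios.

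Among all SINEs the young B2 rows stood at the low end, in a class that leaned lower as a whole. Log2 fold changes were below 0 in 28 of the 32 SINE rows outside B2, against 569 of 1193 tested rows. That held for 16 of 16 B1 rows. The young B2 rows had the 3 lowest log2 fold changes of the 37 SINE rows, and B2_Mm1a was the one SINE called. B2 took 21.3%, 20.3% and 20.4% of SINE counts in the WT libraries and 19.8%, 20.1% and 20.0% in the KO libraries. The difference of means was -0.70 percentage points (exact two-sided permutation p = 0.1, the smallest possible, and 0.25 adjusted), and -0.37 without WT replicate 1. None of the 32 SINE rows outside B2 was called in either direction by edgeR, where 5.78% of all tested rows were called. At an unadjusted p under 0.05 there were 0 of the 32, against 249 of 1193 tested rows. The median log2 fold change was -0.36 for the 3 young B2 rows, -0.099 for the 16 rows of B1, which descends from 7SL RNA, and -0.058 for the 4 rows of B4. It was -0.079 for the 3 ID rows, -0.024 for the 5 rows of MIR, an ancient mammalian SINE, and 0.012 over all tested rows. B1 rows ranged only from -0.15 to -0.027, and B1_Mm, B1_Mus1 and B1_Mur1 were at -0.13, -0.15 and -0.15. Per B1 count there were 0.205 ± 0.0150 young B2 counts in WT and 0.173 ± 0.0122 in KO, with no overlap between genotypes (exact two-sided permutation p = 0.1, 0.25 adjusted). For B3 and B3A the same ratio was 0.388 ± 0.0332 and 0.402 ± 0.0387, with overlap (exact two-sided permutation p = 0.6, 0.632 adjusted).

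**Figure D4:**
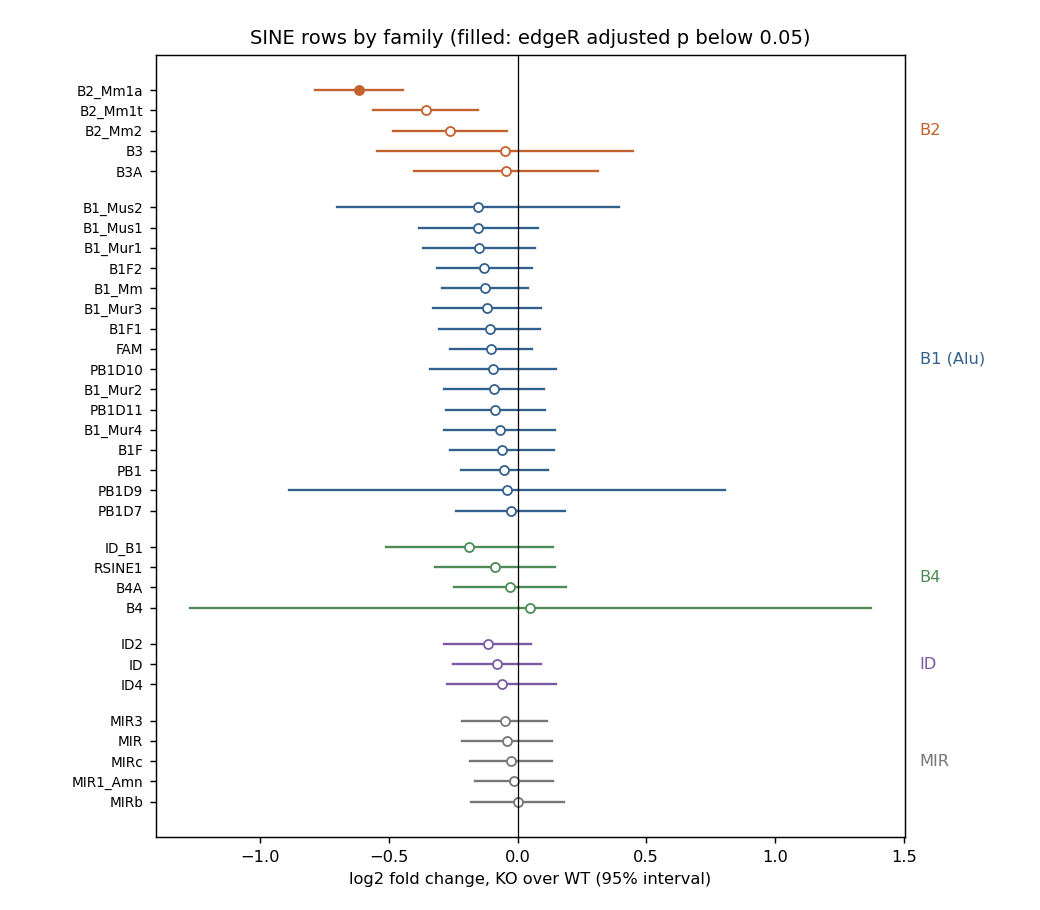
Log2 fold change of KO over WT (horizontal axis) with its 95% interval for the 33 rows of the B2, B1 (Alu), B4, ID and MIR families, where a filled point has an edgeR adjusted p below 0.05. B2_Mm1a, at -0.62, is the one filled point, and the intervals of B3, B1_Mus2, PB1D9 and B4 are wide.

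The rows whose levels over the 6 libraries ran most like those of B2_Mm1a were not SINEs. Likeness was measured as the root-mean-square difference of log2 levels, each centred on its own mean, over 935 tested rows outside B2 with a mean of at least 50 counts. The closest was tRNA-Cys-TGY, a tRNA for cysteine, at 0.0839 log2 units, followed by IAPEY5_I-int at 0.0984, RLTR18-int at 0.104, MMERGLN-int at 0.109 and L3b at 0.124. IAPEY5_I-int, RLTR18-int and MMERGLN-int are internal regions of endogenous retroviruses, and L3b is an ancient LINE. All 5 were themselves called lower, at log2 fold changes of -0.37 to -0.63, beside 3.6% of all rows. The match was made over the same 6 libraries and includes the difference between genotypes. These calls therefore follow in part from how the rows were chosen. The rows closest to B3 were B1_Mus2, a B1 SINE, at 0.0721, then MMERVK10C-int at 0.0985, Plat_L3 at 0.102, RLTR12B2 at 0.112 and MER99 at 0.122. None of these was called, and in all 5 the libraries of the genotypes overlapped, which a match to B3 likewise favours. B1_Mus2 showed the same pair of high libraries as B3, at 3913 normalized CPM in WT replicate 2 and 3487 in KO replicate 1 against 2152 to 2771 in the other four. Within the family the closest pair was B2_Mm1t and B2_Mm2, at 0.0539, followed by B3 and B3A, at 0.0933, and the farthest was B2_Mm1a and B3, at 0.360.

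Rows of tRNA were examined because B2 carries the same type of promoter as a tRNA gene. A fixed list of other RNA polymerase III products was set beside them. Of 39 tested tRNA rows, 13 were called lower and none higher, with a median log2 fold change of -0.78, beside 3.6% of all rows called lower. The 3 smallest p-values belonged to tRNA-Gln-CAA, at 7.44 ± 0.201 normalized CPM in WT and 1.12 ± 0.153 in KO, tRNA-Glu-GAA, at 5.93 ± 1.05 and 0.839 ± 0.328, and tRNA-Val-GTG, at 3.55 ± 0.526 and 0.777 ± 0.157. The WT means of tRNA rows lay between 0.765 and 18.9 normalized CPM, far below those of any B2 row. None of the 8 other polymerase III products tested was called as a row by edgeR. At an unadjusted p under 0.05 there were 4, against 249 of 1193 over all rows. Log2 fold changes were below 0 in 7 of the 8, against 569 of 1193. In 5 of them all KO libraries lay below all WT libraries, against 13.4% of all rows. The family labelled scRNA, at 1989 ± 95.4 normalized CPM in WT and 1670 ± 74.2 in KO, was called lower at -0.25 (edgeR over 58 families, adjusted p = 0.00966, 10.3% of families called). Most of its reads were those of BC1_Mm, so the family call is largely a call of that row, tested among fewer features. BC1_Mm, a row named for the neuronal RNA from which ID elements derive, averaged 1772 ± 89.4 in WT against 1479 ± 67.0 in KO (log2 fold change -0.26, edgeR adjusted p = 0.131). 7SLRNA, the RNA of the signal recognition particle, was at 21839 ± 1960 and 17266 ± 1684 (log2 fold change -0.34, edgeR adjusted p = 0.278). 7SK, a regulator of RNA polymerase II elongation, was at -0.17 and the spliceosomal U6 at -0.21 (edgeR adjusted p = 0.603 and 0.0953). The row 5S had a value above 0, at 0.44 (edgeR adjusted p = 0.601). Lower calls were not limited to these products. The family labelled snRNA, which includes U6, was called lower at -0.81 (edgeR over 58 families, adjusted p = 1.17e-05). In that family U2 and U3, which are not among the listed polymerase III products, were called lower as rows, at -1.14 and -1.70.

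The fall of B2_Mm1a kept its direction in all 18 alternatives, at log2 fold changes of -0.96 to -0.53, and kept its call without each single library (edgeR adjusted p = 0.0111 to 0.0279). The call was lost without both WT replicate 1 and KO replicate 2, at -0.62 (edgeR adjusted p = 0.0717, with 0.775% of rows called). It was also lost when libraries were scaled to total counts, where 0 rows of the table were called by edgeR and 3 had an unadjusted p under 0.05. That scaling moved the median of all rows by -0.37. Relative to that median B2_Mm1a was at -0.60, B2_Mm1t at -0.34 and B2_Mm2 at -0.27, against -0.63, -0.37 and -0.27 with TMM. With libraries scaled to the SINE rows outside B2, B2_Mm1a was at -0.53 and did not pass (edgeR adjusted p = 0.656, with 1.34% of rows called).

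**Figure D5:**
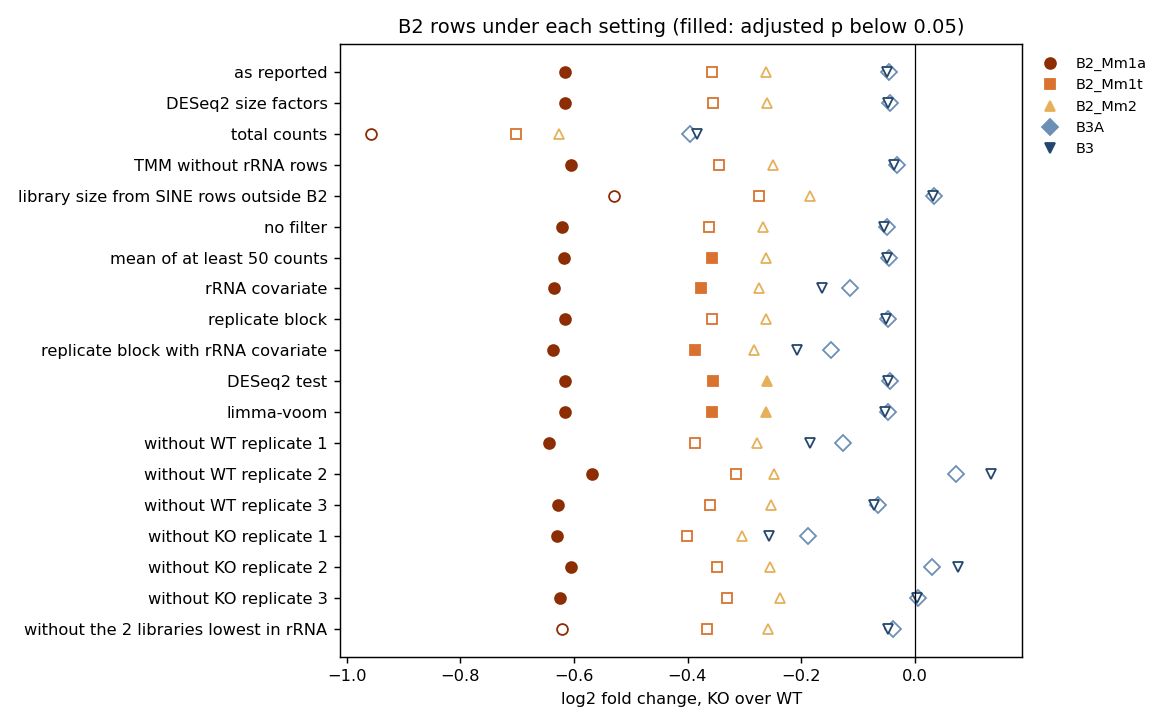
Log2 fold change of KO over WT (horizontal axis) of the 5 B2 rows under the reported setting and 18 alternatives (vertical axis), filled where the adjusted p is below 0.05. The order B2_Mm1a, B2_Mm1t, B2_Mm2 from left to right holds in every setting, while B3 and B3A lie to the right of B2_Mm2, between -0.40 and 0.14, and are above 0 in 4 settings each.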

How the data were processed

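Total RNA of 6 fibroblast libraries was made with TruSeq Ribo-Zero, which depletes rRNA, per the labels' protocols. FastQC 0.11.5, Trimmomatic, Bowtie2 and the builds mm10 and GRCm38 are named in the submitters' processing notes. No source used here states the counting tool, the repeat annotation or the treatment of strand. The authors deposited, for each repeat row, an estimated count, which the file names call fractional and which was a whole number without normalization. Groups and replicate numbers came from the sample titles.

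Counts were fitted over the whole table in R 4.3.3 with edgeR 4.0.16 (filterByExpr, TMM, quasi-likelihood test, Benjamini-Hochberg at 0.05), with standard errors taken from the test statistic. The filter left 1193 rows and removed 143. TMM factors ran from 0.423 to 3.13. A second fit used the summed B3 and B3A counts as library size. Family totals needed a mean of at least 10 counts. Shares and ratios were compared with exact two-sided permutation tests. Replicates of a genotype were not duplicates (their counts differed with a chi-square of at least 477 per degree of freedom). Both fits were tested on simulated data with known changes, of which the fit scaled to B3 and B3A recovered fewer than the TMM fit. Alternatives used DESeq2 1.42.0 and limma 3.58.1. The members, lists, tests and named rows were chosen with earlier results of these data known. Named rows were all B2 rows, the 5 rows closest to B2_Mm1a and to B3, fixed polymerase III products with the 3 smallest p, and fixed SINE names.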

Additional observations from a re-analysis of the deposited data

How the results depend on the processing

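Of the 5 B2 rows, 1 was called as reported and 1 without each single library. The count was 0 with total-count scaling, 0 with libraries scaled to SINEs outside B2 and 0 without WT replicate 1 and KO replicate 2. It was 2 with a mean of at least 50 counts (5.53% of all rows called), 2 with the rRNA covariate, 3 with DESeq2 and 3 with limma-voom. Over all tested rows 69 were called as reported. That count was 0 with total counts, 16 with the SINE scaling, 9 without WT replicate 1 and KO replicate 2, and 22 to 69 without single libraries. Deviations of same-numbered WT and KO libraries from their group means had correlations of -0.55, -0.50 and 0.039, so likeness did not follow the numbers. The highest were 0.62 for WT replicate 1 with KO replicate 2 and 0.46 for WT replicate 2 with KO replicate 1. These pairs were the lowest and the highest in rRNA share. Whether same-numbered libraries were prepared together was not tested. With the replicate block 1 B2 row and 24 rows in all were called, and with the replicate block and the rRNA covariate 2 and 121, in a fit with 1 residual degree of freedom. With that block and covariate 1 young row, B2_Mm1a at -0.45, passed relative to B3 and B3A, where 23.8% of all rows were called, and 0 did in the other 11 alternatives.

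B3 was at 0.032 with the SINE scaling and at -0.26 to 0.14 without single libraries (0.14, 0.076 and 0.0046 without WT replicate 2, KO replicate 2 and KO replicate 3). B3A was at 0.034 with the SINE scaling and at -0.19 to 0.073 without single libraries (0.073, 0.031 and 0.0053 without the same ones). The log2 ratio of young to older counts ranged from -0.41 to -0.16 without single libraries. It was -0.29 with the replicate block (exact sign-flip p = 0.5, where the smallest possible p is 0.25). For B2_Mm1a alone over the older rows it was -0.57, with no overlap between genotypes (exact two-sided permutation p = 0.1, the smallest possible). The B2 share of SINE counts ranged from -0.90 to -0.37 percentage points without single libraries, and the B2 total as a percent of B1 counts differed by -1.75. The family total kept its direction and side of the threshold in all 14 alternatives, at -0.49 to -0.028. The cause of these differences was not tested. In KO, where B2_Mm1a had its lowest count of 5409, counting error was of similar size to the spread between libraries. The spread of B3 and B3A between libraries limited the comparison of young and older rows.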
